A study of Mus musculus with 9 samples.

Results

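The expressed immune genes of primed OT-1 T cells cultured alone were described from 3 samples, of 9 in the series. The samples were those whose labels give no co-culture, and all 750 genes of the panel were ranked by their mean level in them. Genes with a mean over the log2 level of 100 normalized counts, called the threshold or the line below, were set apart from those under it, and the 100 genes with the highest mean were described as a group. The level chose these genes, so their levels are given as a description, with no test.

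OT-1 is a mouse strain whose CD8+ T cells carry a transgenic receptor for the SIINFEKL peptide of ovalbumin (OVA), presented by the MHC class I molecule H-2Kb. Splenocytes of OT-1 mice had been primed with 1 µM of that peptide and 50 IU/ml of IL-2 for 48 h, and the purified CD8+ cells were then expanded in IL-2 for 4 days. The samples described here were kept for a further 24 h without macrophages or tumor cells, in medium with 50 IU/ml of IL-2 according to the methods, and were sorted for CD8 before RNA was extracted. The deposit's own treatment text names the medium without IL-2, and its design text calls the reference cells naive although its growth protocol describes the priming. The cells are thus cultured effectors of a single specificity, and the paper counts such samples as co-cultures. Its reporting summary speaks of biologic replicates for major experiments in general, and whether these cultures came from separate animals is not stated. The SDs below are the spread between these 3 samples alone, and that spread may be technical.

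A CD8+ T cell that meets its peptide divides, takes up the high affinity receptor for IL-2 and loads granules with perforin and granzymes, which kill the target cell on contact. Such effectors also acquire receptors first described on natural killer (NK) cells, among them NKG2D, which binds stress-induced ligands, and the CD94/NKG2A pair, which inhibits the cell on meeting Qa-1. They leave the lymph node by exchanging CCR7 for receptors of inflammatory chemokines.

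RNA was counted on an nCounter, an instrument that images colour-coded probes bound to each transcript and needs no amplification. The values deposited by the authors are log2 normalized counts, so a difference of 1 is a 2-fold difference. Probes bind with unequal efficiency, and the order of genes below is therefore an order of signals rather than of transcript numbers. In each sample 100% of the values under 30 counts were multiples of 1 step (14.3% to 20.9% by chance), and from the 3 steps the raw totals came to 1185987, 1140283 and 733569 counts in replicates 1, 2 and 3. Replicate 3 was thus the shallowest and had the largest scale factor, 1.13 normalized counts per raw count, against 0.681 and 0.713 in replicates 1 and 2. A level of 100 normalized counts stood for 147, 140 and 89 raw counts, with a counting error of 8.25%, 8.44% and 10.6%. Every pair of samples differed by more than counting noise (a chi-square of 1.94 to 3.45 for each degree of freedom), so none was taken for a library deposited again. Repeat measurements of 1 RNA could differ as much.

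The marker genes named for this part were all over the line. They came with the description of the part, and the cells had been sorted for CD8. Their levels are thus no independent check of the label. Cd3e, a signalling chain of the T cell receptor complex, stood at 12.82, 12.83 and 12.96 in replicates 1, 2 and 3 (mean 12.87 ± 0.08, SD, n = 3, rank 28). Cd8a, the CD8 alpha chain, stood at 11.59, 11.64 and 11.53 (rank 63). Cd4, the coreceptor of the other main T cell lineage, stood at 3.53, 4.37 and 4.08, and the difference Cd8a minus Cd4 was 7.59 ± 0.41 (SD, n = 3). The effector markers lay higher still. Gzma and Gzmb, which encode granzymes A and B, ranked 4 and 8, Klrd1, which encodes CD94, ranked 9, and Il2ra, the alpha chain of the IL-2 receptor (CD25), ranked 21.

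Of 750 genes, 359 had a mean over the threshold, which is 47.9% of the panel. All 3 samples lay over the threshold for 357 genes and all 3 under it for 382, and for 11 genes the samples fell on both sides. Means ran from 2.01 for Ccl17, a chemokine of dendritic cells, to 14.80 for Il2rb, and 27 genes lay within 0.5 of the threshold. The 10 highest genes held 25% to 25.6% of all normalized counts of a sample and the 100 highest held 79.2% to 79.9%. Genes over the threshold held 98.64% to 98.97%, as the plot of ranked levels shows by its flat tail.

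**Figure D1:**
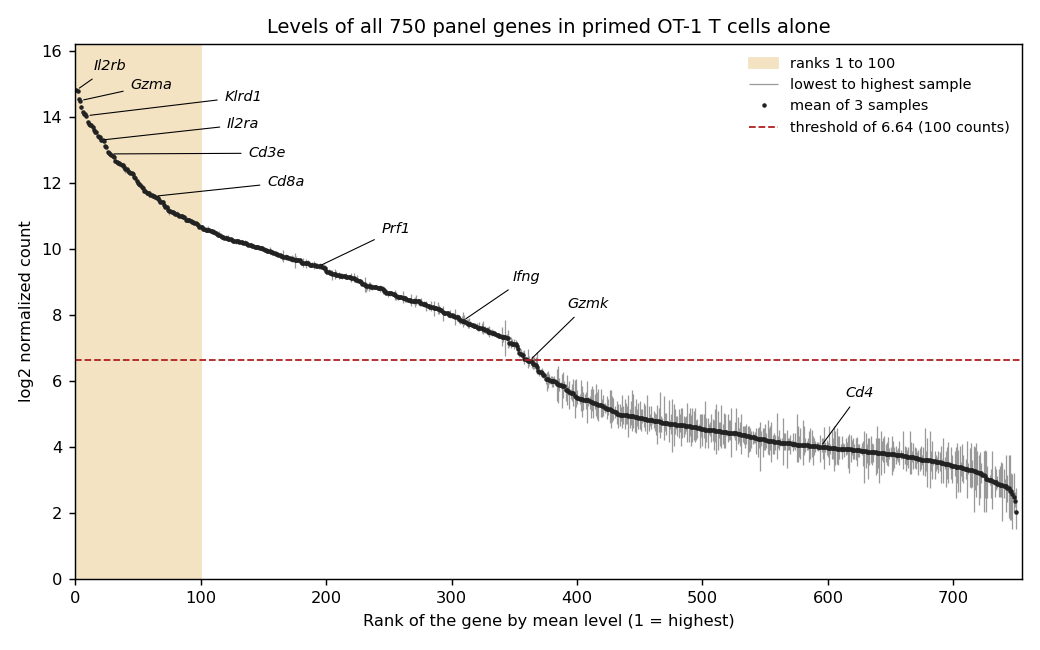
Mean log2 normalized count of each of the 750 genes (y axis) against its rank (x axis), with a grey line from the lowest to the highest of the 3 samples, the ranks 1 to 100 shaded and the threshold of 100 normalized counts dashed. The 359 genes left of the crossing have short lines, the genes to its right have long ones, and Gzmk sits at the crossing.

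The receptor for IL-2 headed the ranking. Il2rb, the beta chain that signals for both IL-2 and IL-15, stood at 14.76, 14.77 and 14.87 (mean 14.80 ± 0.06, SD, n = 3). Il2ra stood at 13.24, 13.31 and 13.32, and Il2rg, the common gamma chain shared by receptors of several interleukins, at 11.66, 11.73 and 11.69 (rank 58). The order of the chains, beta over alpha over gamma, was the same in every sample. The transcript of IL-2 itself, Il2, was among the genes at the lowest levels, with 3.53, 3.90 and 4.08 (rank 636).

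After Il2rb came Lcp1 (14.76 ± 0.02), which encodes the actin-bundling protein L-plastin of leukocytes, Vim (14.54 ± 0.03) for the intermediate filament vimentin, Gzma (14.48 ± 0.02) and Thy1 (14.28 ± 0.07), a surface marker of mouse T cells. H2-K1 and H2-D1, the MHC class I heavy chains, followed with 14.15 ± 0.01 and 14.08 ± 0.01 (SD, n = 3 each). Gzmb (14.07 ± 0.03), Klrd1 (14.03 ± 0.01) and the immunoproteasome subunit Psmb8 (13.82 ± 0.03) completed the first 10. Il2rb lay over Lcp1 in 2 of 3 samples only, so the head of the ranking is not resolved by these samples. Among the 24 pairs of neighbours in the 25 highest genes, 11 did not keep their order in every sample, Cd3d and Cd3g, Ifitm1 and Mif, and Il2ra and Ctsw among them.

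Ranks 11 to 25 included Anp32b, Cd3d, Cd3g, Selplg, Cxcr6, Ifitm1, Mif, Itgb1, Ifitm2, Il2ra, Ctsw, Cd47, Gpi1 and Ets1, with means falling to 13.09. Selplg (13.68 ± 0.01) encodes the selectin ligand PSGL-1, Ifitm1 and Ifitm2 encode membrane proteins that restrict viral entry, Ctsw encodes cathepsin W of cytotoxic cells, and Ets1 is a transcription factor of lymphocytes. As a set the 100 highest genes were alike between samples, and 98 genes were among the 100 highest of every sample. At the edge of the 100, Cdkn1a, a cell cycle inhibitor, had 10.69, 10.67 and 10.62 (rank 99), and Mapk14, the kinase p38 alpha, had 10.68, 10.63 and 10.63 (rank 101). Their samples overlapped, although the first lay inside and the other outside. Birc5 (10.61, rank 102) followed.

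Lists of genes with a shared role were laid over the ranking. The 100 highest genes are 13.3% of the panel, and they took 12 of the 22 measured T cell identity genes, the TCR complex included, 8 of 18 of MHC class I and peptide loading, 5 of 12 cytotoxic effectors and 6 of 14 of cell cycle and growth. Lcp1 and Ptprc, which are genes of leukocytes in general, count among the 12. They took 7 of 30 interleukin receptors, 7 of 30 integrins and adhesion genes and 6 of 29 NK cell receptors and adaptors. They held none of 18 TNF family receptors and none of 9 Toll-like receptors.

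**Figure D2:**
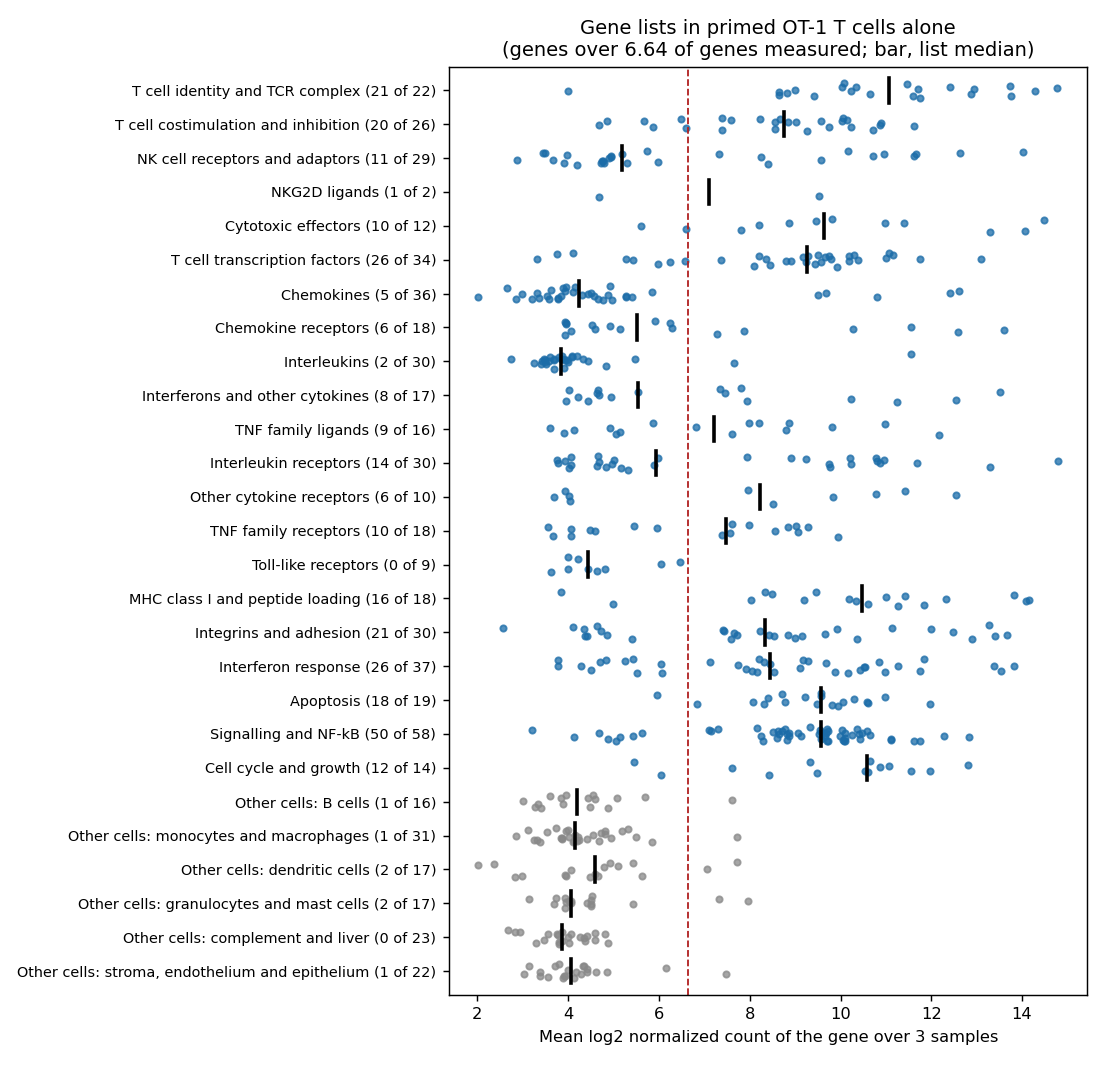
Mean log2 normalized count over 3 samples (x axis) of each measured gene in 27 lists (rows), with a black bar at the list median, the threshold of 100 normalized counts dashed and markers of other cell types in grey. T cell identity genes sit right of the line except Cd4, and chemokines and interleukins sit left of it apart from 5 and 2 genes.

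T cell identity genes lay over the threshold in 21 of 22 cases (95.5%, against 47.9% of the panel), with a median of 11.06, against a median of 6.06 over all 750 genes. Cd4 was the exception. The 21 include genes of leukocytes in general, such as Lcp1 and Ptprc. Cd3d (13.75 ± 0.05) and Cd3g (13.74 ± 0.02) lay together, Cd3e was lower than Cd3g by 0.87 ± 0.07 on the log2 scale, and Cd247, the zeta chain, was 1.17 ± 0.04 under Cd3e (SD, n = 3 each). Cd8a exceeded Cd8b1, the beta chain of the coreceptor, by 1.36 ± 0.07. The kinases that the receptor engages ran in the order Lck (12.41), Fyn (11.74) and Zap70 (11.46), and the lowest members over the line were Cd2 and Cd7, each at 8.65.

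Genes of T cell costimulation and inhibition, which include receptors, their ligands and the ectoenzymes Entpd1 and Nt5e, were over the threshold in 20 of 26 cases, which is 76.9%, against 47.9% of the panel. The inhibitory receptor PD-1 (Pdcd1) stood at 10.80, 10.86 and 10.99, and LAG-3 (Lag3) at 10.86, 10.78 and 10.94, so their samples overlapped. TIM-3 (Havcr2) stood at 10.15 in all 3 samples and CTLA-4 (Ctla4) at 10.08, 9.98 and 10.11. Tigit followed with 9.27 ± 0.06. Receptors that promote activation were over the line as well. Icos stood at 10.23 ± 0.06, Cd28 at 9.75 ± 0.19, the early activation marker Cd69 at 10.03 ± 0.05, and of the TNF receptor family Cd27 at 8.85 ± 0.05, Tnfrsf9 (4-1BB) at 8.55 ± 0.10 and Tnfrsf4 (OX40) at 7.38 ± 0.08 (SD, n = 3 each).

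Ligands of these receptors were measured in the same T cells. Cd80, which binds CD28 and CTLA-4, stood at 9.56 ± 0.04, and the PD-1 ligands Cd274 and Pdcd1lg2 at 8.67 ± 0.03 and 8.56 ± 0.12. Cd86, the other CD28 ligand, had 6.36, 6.42 and 6.71 and so fell on both sides of the line, as did Cd200. Btla, Cd40lg and Cd276 lay under it in every sample. Cd44, a protein that marks antigen-experienced T cells, was under it too, at 4.62, 4.60 and 5.34 (rank 453). A count for a transcript says nothing of the protein, and how the panel's Cd44 probe relates to the splice forms of that gene was not analysed here.

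NK cell receptors and adaptors split within the list. Of 29 measured genes, 11 were over the threshold in all samples and 18 were under it in all, a share of 37.9% over, against 47.9% of the panel. Klrd1 had 14.02, 14.02 and 14.04. Klrk1, which encodes NKG2D, had 12.65, 12.64 and 12.63 (rank 33), and Hcst, its adaptor DAP10, had 10.13, 10.11 and 10.25. Both the receptor and its adaptor were thus expressed, with the receptor higher by 2.48 ± 0.08. Klrc1, the inhibitory partner NKG2A of CD94, stood at 11.67 ± 0.07, and Klrc2, the activating partner NKG2C, at 8.25 ± 0.06. The difference Klrc1 minus Klrc2 was 3.43, 3.30 and 3.55 in the 3 samples.

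The remaining NK genes over the line were Cd160 (11.63), which binds HVEM and class I molecules, the SLAM family receptors Slamf7 (10.96) and Cd244 (10.72, 2B4), Klra5 (9.57), the adaptor Fcer1g (8.40) and Klrb1c (7.32), which encodes NK1.1. Under it lay Klrg1, a marker of terminal effectors, with 5.89, 5.90 and 6.15, the NK cell receptor Ncr1 (NKp46) with 4.73, 5.07 and 4.56, and Ncam1 with 3.66 ± 0.17. Of the 12 Ly49 genes measured, named Klra, Klra5 alone was over, and the other 11 ran up to 5.29. The Klra genes are near-copies of each other, as are Klrc1 and Klrc2, and how far their probes tell them apart is not stated. Of the 2 measured ligands of NKG2D, Ulbp1 (MULT-1) stood at 9.54, 9.45 and 9.56 and H60a at 4.67 ± 0.32.

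**Figure D3:**
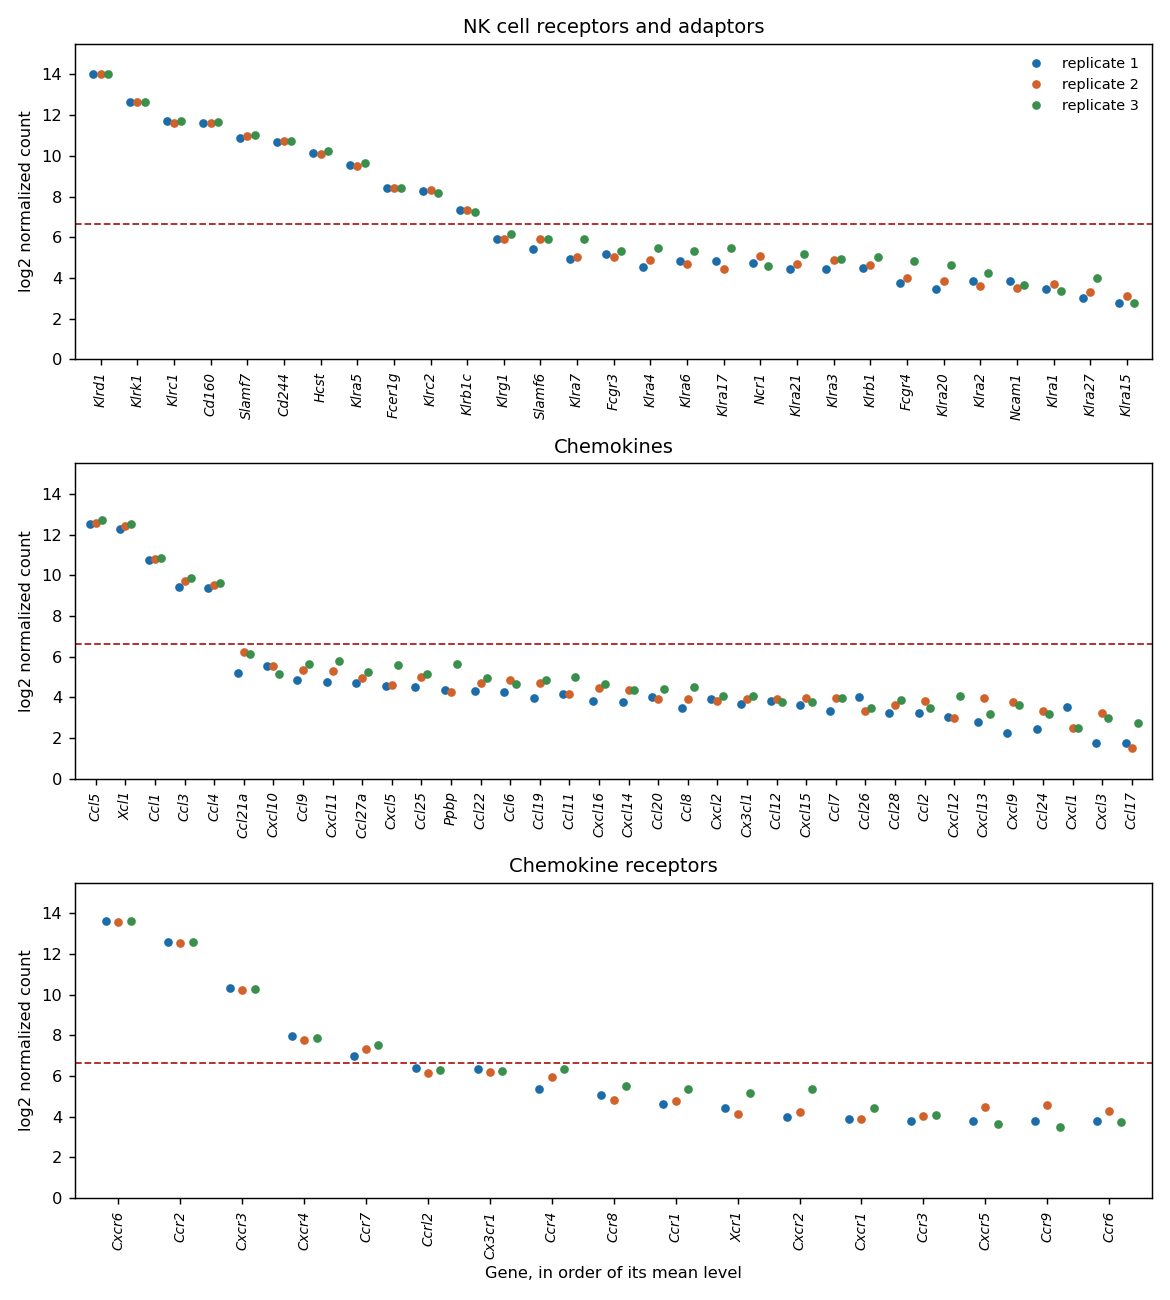
Log2 normalized count (y axis) in each of the 3 samples (colours) for measured NK cell receptors and adaptors, chemokines and chemokine receptors, ordered by mean level (x axis), with the threshold of 100 normalized counts dashed. In each family some genes lie over the line and most lie under it.

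Cytotoxic effectors were over the threshold in 10 of 12 cases (83.3%, against 47.9% of the panel), with a median of 9.64. Gzma had 14.51, 14.47 and 14.47 and Gzmb had 14.07, 14.09 and 14.04, so Gzma was higher in 3 of 3 samples, by 0.42 ± 0.03. Prf1, the pore-forming perforin, stood far lower, at 9.39, 9.50 and 9.50 (rank 194), which is 4.60 ± 0.07 under Gzmb. Lamp1, the granule membrane protein CD107a, stood at 11.40 ± 0.04. The ligands of death receptors were TRAIL (Tnfsf10) at 10.99 ± 0.06 and FasL (Fasl) at 9.81 ± 0.03, and the receptor Fas lay under the line at 5.97, 6.05 and 5.87.

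The secreted effector cytokines of CD8+ T cells were the lowest of the effectors over the line. Lta, lymphotoxin alpha, stood at 8.87 ± 0.14, Tnf at 7.96, 8.25 and 8.41, and Ifng, interferon gamma, at 7.62, 7.75 and 8.07 (rank 309). The granzymes were not all over the line. Gzmk had 6.76, 6.60 and 6.44, on both sides of the threshold, and Gzmm had 5.23, 5.56 and 6.05, under it. Gzma exceeded Gzmk by 7.88 ± 0.14 on the log2 scale (SD, n = 3).

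Levels were also laid out along the chromosome for 5 clusters of related genes, chosen after their values were seen. The order is that of the RefSeq annotation of GRCm38.p6. Only measured members of a cluster entered it, and any other genes lying between them were left out, measured or not. Of 35 pairs of neighbours in them, 23 had means on the same side of the line and 12 on opposite sides, where 47.9% of the panel was over. Gzma and Gzmk are 1 of the 12, although the samples of Gzmk fell on both sides. Nothing is read from these counts. Among the measured Klr genes of the NK gene complex, Klrb1c, Klrd1, Klrk1, Klrc2 and Klrc1 follow each other in this order, all over the threshold. Klrb1 (4.72 ± 0.28) lies before them and Klra17 (4.91) after, then comes Klra5 at 9.57, and the Klra genes beyond it lie under. Among CC chemokine genes, Ccl1 and Ccl5 are followed by Ccl9 (5.28) and Ccl6 (4.57), both under, and these by Ccl3 and Ccl4, both over. Cxcr6 lies next to Xcr1 (4.59), and Ccr2 follows Ccr1 (4.93) and Ccr3 (3.96). Il18r1 and Il18rap follow 4 receptor genes of the IL-1 family with means of 4.06 to 5.31. Gzma and Gzmk are neighbours as well.

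**Figure D4:**
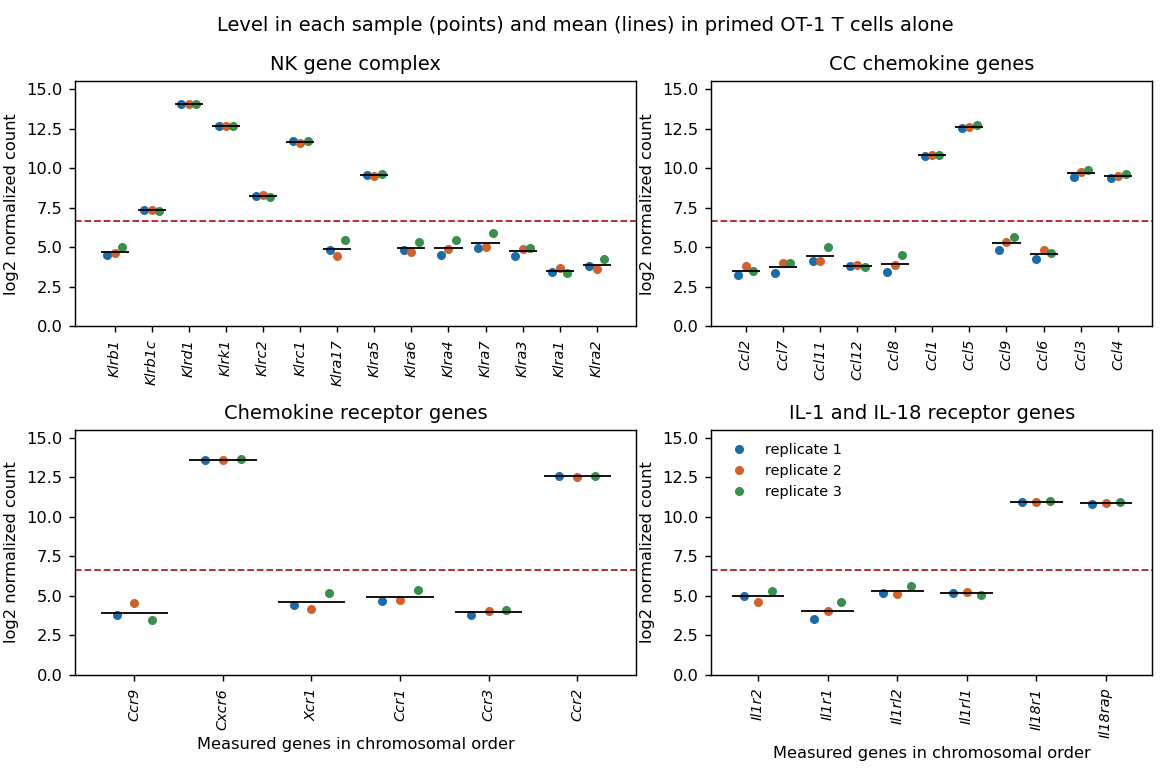
Log2 normalized count (y axis) of measured genes placed in 4 clusters, in their chromosomal order (x axis). Genes outside a cluster are left out of the order. Points are the 3 samples, black lines the mean, and the threshold of 100 normalized counts is dashed. Each cluster holds genes over the line and genes under it.

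The 250 bases before the annotated start of a member over the line and of its neighbour are shown for 3 of these clusters, from RefSeq (GRCm38.p6), to set the regulatory sequence beside the level. Capitals mark matches, on either strand, of TGTGGT (the RUNX core), TTCNNNGAA (STAT), TGANTCA (AP-1) and GGTGTGA (T-box). The first pair is Gzma (mean 14.48, chr13:113100982-113101231, minus strand) and Gzmk (mean 6.60, chr13:113180966-113181215, minus strand). The next is Cxcr6 (mean 13.60, chr9:123806227-123806476, plus strand) and Xcr1 (mean 4.59, chr9:123862030-123862279, minus strand). The last is Klra5 (mean 9.57, chr6:129913225-129913474, minus strand) and Klra17 (mean 4.91, chr6:129876673-129876922, minus strand).
Gzma: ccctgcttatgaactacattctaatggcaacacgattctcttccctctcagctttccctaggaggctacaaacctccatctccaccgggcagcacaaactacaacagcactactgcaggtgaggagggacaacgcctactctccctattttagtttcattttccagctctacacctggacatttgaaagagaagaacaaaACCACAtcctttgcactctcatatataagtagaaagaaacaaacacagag
Gzmk: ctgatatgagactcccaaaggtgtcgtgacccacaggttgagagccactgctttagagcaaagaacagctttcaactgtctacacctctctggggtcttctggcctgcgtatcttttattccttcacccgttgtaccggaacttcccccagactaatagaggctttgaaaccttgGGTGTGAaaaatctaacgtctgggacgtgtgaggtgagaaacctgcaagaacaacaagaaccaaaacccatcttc
Cxcr6: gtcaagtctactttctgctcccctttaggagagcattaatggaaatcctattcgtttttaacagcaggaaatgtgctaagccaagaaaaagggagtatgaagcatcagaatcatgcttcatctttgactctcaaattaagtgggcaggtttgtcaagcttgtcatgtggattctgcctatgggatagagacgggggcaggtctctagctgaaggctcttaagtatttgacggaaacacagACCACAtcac
Xcr1: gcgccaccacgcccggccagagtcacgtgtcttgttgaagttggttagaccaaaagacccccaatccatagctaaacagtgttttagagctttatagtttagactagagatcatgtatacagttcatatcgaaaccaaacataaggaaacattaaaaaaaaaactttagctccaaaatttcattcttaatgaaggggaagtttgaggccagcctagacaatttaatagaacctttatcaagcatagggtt
Klra5: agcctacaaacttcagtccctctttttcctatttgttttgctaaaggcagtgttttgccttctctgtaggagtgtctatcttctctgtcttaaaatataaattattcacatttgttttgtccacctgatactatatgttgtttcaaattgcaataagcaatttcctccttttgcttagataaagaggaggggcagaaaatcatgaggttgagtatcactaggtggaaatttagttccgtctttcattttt
Klra17: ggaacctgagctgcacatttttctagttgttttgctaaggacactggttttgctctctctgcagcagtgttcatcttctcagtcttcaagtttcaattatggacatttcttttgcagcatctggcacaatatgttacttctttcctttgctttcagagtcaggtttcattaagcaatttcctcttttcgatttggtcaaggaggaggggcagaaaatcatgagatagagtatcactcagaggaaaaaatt

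Gzma held a RUNX core starting 50 bases before the start and Cxcr6 held 1 starting 10 bases before it, letters found in 14% of the 32841 annotated promoters of this length. Gzmk held the T-box letters starting 75 bases before its start, a match found in 3.33% of promoters. The STAT letters (7.02% of promoters) and the AP-1 letters (6.75%) were in none of the 6 windows, and Xcr1, Klra5 and Klra17 held no match of any kind. A match is a run of letters and not a binding site. Promoter entries were matched by symbol for 549 of 750 genes, which is 73.2% and too few for a comparison of promoters over the panel, so none was made.

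Few chemokines and fewer interleukins were over the threshold. Of 36 measured chemokines 5 were over (13.9%, against 47.9% of the panel), and they were Ccl5 (RANTES), with 12.54, 12.57 and 12.70, Xcl1 (lymphotactin), with 12.29, 12.43 and 12.54, Ccl1, with 10.75, 10.81 and 10.83, Ccl3 (MIP-1 alpha), with 9.41, 9.74 and 9.86, and Ccl4 (MIP-1 beta), with 9.37, 9.50 and 9.64. Ccl3 lay over Ccl4 in 3 of 3 samples, by 0.17 ± 0.11. The 12 CXC chemokines were all under, with means of 2.65 to 5.40, Cxcl10 being the highest. All samples of these 5 lay over the line and all samples of the other 31 under it. The line itself sets that split, and only 11 of 750 panel genes had samples on both sides.

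Of 30 interleukins, Il16 (11.55 ± 0.04) and Ebi3 (7.66 ± 0.06), a subunit of IL-27 and IL-35, were over. The other 28 had means of 2.74 to 5.48, with Il18 the highest and with Il10 at 3.60 ± 0.83 (SD, n = 3). Among other cytokines 8 of 17 were over, 47.1% and close to the 47.9% of the panel. Mif, macrophage migration inhibitory factor, was the highest at 13.52 ± 0.05, followed by Tgfb1 at 12.54 ± 0.04, Spp1 (osteopontin) at 11.25 ± 0.07 and Flt3l at 10.23 ± 0.08. Csf1 (7.94), Ifng (7.81), Osm (7.45) and Csf2 (7.34), which encodes GM-CSF, were the lower ones. The 5 type I and type III interferon genes measured had means of 3.95 to 5.54.

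TNF family ligands were over in 9 of 16 cases, 56.2% and not far from the 47.9% of the panel. Ltb, lymphotoxin beta, led with 12.16 ± 0.03, ahead of Tnfsf10, Fasl, Lta and Tnfsf11 (RANKL, 8.79 ± 0.02), and Tnfsf8 was the lowest at 6.76, 6.95 and 6.76. Ltbr, the receptor of lymphotoxin beta, was under at 3.55, the lowest mean of the 18 TNF receptors. Of these 18, 10 were over (55.6%, against 47.9% of the panel), with Tnfrsf1b, the TNF receptor type 2, the highest at 9.95 ± 0.09 and Tnfrsf1a next at 9.28 ± 0.06.

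Of 18 chemokine receptors 6 were over the threshold, 33.3% against 47.9% of the panel. Cxcr6, the receptor of CXCL16, had 13.61, 13.58 and 13.62 (rank 15), and Ccr2, the receptor of CCL2, had 12.59, 12.54 and 12.60. Cxcr6 exceeded Ccr2 by 1.03 ± 0.01. Cxcr3 stood at 10.28 ± 0.04 and Cxcr4 at 7.87 ± 0.11. The homing receptor Ccr7 was the lowest of the 6, at 7.0, 7.32 and 7.53. Cx3cr1 lay under the line at 6.34, 6.18 and 6.24, and Xcr1, the receptor of XCL1, at 4.59 ± 0.52. The transcript of the ligand was thus over the line and that of its receptor was not.

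Interleukin receptors were over in 14 of 30 cases, 46.7% and close to the panel's share. Besides the IL-2 receptor chains these were Il18r1 and Il18rap, the 2 chains of the IL-18 receptor, with means of 10.96 and 10.86 and a difference of 0.10 ± 0.02. Il12rb2 and Il12rb1, the chains of the IL-12 receptor, stood at 10.22 and 9.24, Il7r at 10.79, Il17ra at 10.81, Il21r at 10.20, Il4ra at 9.77 and Il10ra at 9.75. Il3ra (8.92) and Il1rap (7.94), an accessory chain of IL-1 family receptors, were the lowest. Il15ra had 5.87, 5.70 and 6.08, Il6st, the signalling chain gp130, had 5.98 ± 0.15, and Il6ra had 3.79 ± 0.35. Ifngr1 (12.53), Ifnar1 (11.42), Ifnar2 (9.82), Tgfbr2 (10.79) and Tgfbr1 (8.51) were over the line, and Csf1r, Csf2rb, Csf3r and Flt3 were under it. Ifngr1 exceeded Ifng, the transcript of its ligand, by 4.72 ± 0.27.

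T cell transcription factors were over in 26 of 34 cases (76.5%, against 47.9%). Eomes stood at 11.03, 11.02 and 10.98, and Tbx21, which encodes the related factor T-bet, at 9.43, 9.55 and 9.73, lower by 1.44 ± 0.18. Irf4 (9.93), Batf (9.43), Tcf7 (9.17), Runx3 (8.44) and Prdm1 (8.21, Blimp-1) were over as well, and so were Stat6 (11.16), Stat3 (11.06) and Stat2 (9.29). Bcl6 had 6.38, 6.57 and 6.76, on both sides. Foxp3, the factor of regulatory T cells, lay under at 3.31 ± 0.86 (SD, n = 3). Signalling genes were over in 50 of 58 cases (86.2%, against 47.9%), led by Jak1 (12.83) and Pik3cd (12.28). The 8 under were Ticam2, Mapk11, Mef2c, Elk1, Btk, Socs3, Syk and Card9.

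Genes of antigen presentation by MHC class I were over in 16 of 18 cases (88.9%, against 47.9% of the panel), with a median of 10.46. Behind H2-K1, H2-D1 and Psmb8 came H2-T23 (12.32), which encodes Qa-1, the peptide transporter Tap1 (11.84) and the immunoproteasome subunits Psmb9 (11.27) and Psmb10 (10.19). Nlrc5, the class I transactivator, stood at 10.59, 10.57 and 10.63, and Ciita, the class II transactivator, at 3.03, 2.68 and 2.76. H2-Q1 and H2-Q2 were the members under, and these genes are near-copies of other class I genes. Interferon response genes were over in 26 of 37 cases (70.3%, against 47.9%). Ifitm1 (13.53), Ifitm2 (13.37), Irf1 (10.98), Isg20 (10.85), Ifi27 (10.54), Bst2 (10.16), Ifit2 (8.21), Irf7 (8.16) and Oas3 (8.04) were among those over, and Isg15 (6.04), Usp18 (6.06), Ifit1 (5.51), Ifit3 (5.43), Oas2 (5.26), Rsad2 (4.69) and Mx1 (3.78) were among the 11 under. Genes that type I interferon is known to induce were thus on both sides of the line.

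Adhesion genes were over in 21 of 30 cases (70%, against 47.9% of the panel). Itgb1 (13.40), Itgal (12.91) and Itgb2 (11.99), the last 2 forming LFA-1, were the highest integrins, and the alpha chain lay over the beta chain of LFA-1 by 0.92 ± 0.09. Itgae, the alpha chain of the resident T cell integrin CD103, stood at 7.41 ± 0.05, and Itga2 lay under at 5.41 ± 0.15. Genes of the cell cycle and growth were over in 12 of 14 cases (85.7%, against 47.9%), among them the transferrin receptor Tfrc (12.82), Myc (10.88), Birc5 (10.61, survivin) and Ccnd3 (10.54), with Cdk1 under at 6.29, 5.78 and 6.08. Apoptosis genes were over in 18 of 19 cases (94.7%, against 47.9%), Fas being the exception. None of the 9 Toll-like receptors had a mean over the line, and Tlr6 came closest with 6.39, 6.72 and 6.30.

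Markers of other cells set the level against which these values can be read. Of 126 measured markers of B cells, monocytes and macrophages, dendritic cells, granulocytes, complement, stroma and epithelium, 7 were over the threshold, 5.56%, with a median of 4.10. List medians were 3.87 to 4.59, and Cd14 (5.49), Lyz2 (5.32) and Csf1r (4.02) lay under in every sample. In raw counts the median marker had 23, 24.9 and 18 counts in replicates 1, 2 and 3. The 7 over were Kit (7.96), Cd68 (7.73), Itgax (7.73), Tnfrsf13b (7.60), Cdh1 (7.47), S100a8 (7.32) and H2-Ab1 (7.06). H2-Dma, an MHC class II gene like H2-Ab1, was in none of these lists and was over the line too, at 7.79, 7.71 and 7.97. Summed over the 31 monocyte and macrophage markers the level was 749, 844 and 995 normalized counts, less than that of Lag3 alone. In bulk RNA a low level in all cells and a high level in a few cannot be told apart.

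Genes near the threshold were too close to it to be placed. The line was taken at 2 decimals, as in the table, and at the unrounded level of 100 counts 358 genes were over, Ly96 being the one that changes side. Just over the line lay Ly96 (6.60, 6.70 and 6.63) and Slamf1 (6.50, 6.57 and 6.93), and just under it Prkce (6.68, 6.63 and 6.58), Cd200, Gzmk and Tirap. The markers of other cells had a 90th percentile of 5.42, and 48 genes lay between that and the threshold, Klrg1, Fas, Il15ra, Cx3cr1 and Isg15 among them. For these a mean under the threshold is a low signal above that of most marker genes of other cells.

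Samples were alike for genes over the line and less so for genes under it. The median SD was 0.059 for the 359 genes over and 0.355 for the 391 under, and counting error alone gives a median of 0.048 and 0.312. The median SD of the 100 highest genes was 0.035, with a highest value of 0.125 for Xcl1, while counting error there was 0.021. Over the line, 88 genes had an SD more than 2 times that of counting. The largest was that of S100a8, a calcium-binding protein of neutrophils, which had 6.74, 7.38 and 7.84 (SD 0.55). The 17 granulocyte and mast cell markers, S100a8 among them, summed to 597, 690 and 846 normalized counts in the same samples. The 23 complement and liver markers, none of them over the line, summed to 327, 373 and 462. Both sums rose in that order, and that of the granulocyte list includes S100a8 itself. The part of other cells in the spread of S100a8 was not tested.

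The next largest SDs were those of Csf2 (0.30), Ccr7 (0.27), Csf1 (0.25), the immediate-early factors Egr1 (0.24) and Jun (0.24), Ccl3, Ifng, Slamf1 and Tnf (0.23 each). Of these 10 genes, Jun excepted, 9 were lowest in replicate 1 and highest in replicate 3, and 127 of the 359 genes over the line (35.4%) were so too. Replicate 3 was also the shallowest sample, and the part of depth was not tested. Replicate correlations over all genes were 0.9907 to 0.9934 on the log2 scale, and 0.814 to 0.857 over genes under the line alone.

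**Figure D5:**
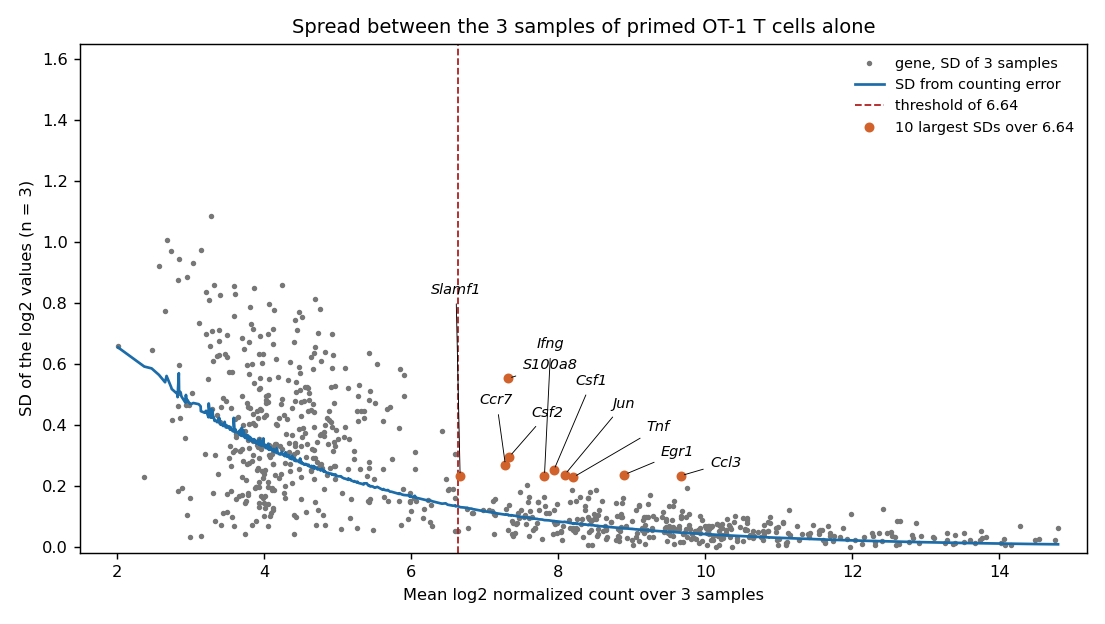
SD of the log2 values of 3 samples (y axis) against the mean (x axis) for each of the 750 genes in grey, with the SD that counting error alone gives as a blue line and the 10 largest SDs over the threshold in orange. S100a8 stands highest among the genes over the threshold at 0.55, and the cytokine genes Csf2, Csf1, Ccl3, Ifng and Tnf lie above the line at 0.23 to 0.30.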

How the data were processed

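RNA of sorted CD8+ OT-1 T cells was hybridised to NanoString's PanCancer Immune Profiling Panel and read on an nCounter MAX, and the authors normalized the counts in nSolver 4.0.70. The values used here are the log2 normalized counts that the authors deposited for 750 genes, with 2 decimals. Housekeeping probes, controls and raw counts were not used here. The 3 samples cultured alone entered, and the 6 columns of the co-cultures did not.

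Genes were ranked by the mean of 3 log2 values. Scale factors were found from the spacing of values under 30 counts, a procedure tested on simulated data, and these gave raw counts for the counting errors and the chi-square check between samples. The table's symbols were used as given, 734 being current in RefSeq, 8 older symbols and 8 not matched there. Named genes were the 25 highest, those at ranks 96 to 105, the T cell, NK cell receptor and cytotoxic lists, members of other lists over the threshold or within 0.5 of it, markers of other cells over it, and the 10 largest SDs. Members under the line are named as contrasts, chosen after their values were seen. The members and lists were chosen with earlier results of these data known. A list of testis antigens had 0 measured genes. Calculations used Python 3.11.15, numpy 2.4.6, pandas 2.3.3 and scipy 1.17.1. Some genes are not reported here by name, although counts include them.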

Additional observations from a re-analysis of the deposited data

How the results depend on the processing

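The count of 359 genes over the threshold was 394 at 50 and 319 at 200 normalized counts, and 357 to 368 under 8 further settings (all samples over, the median, the mean of counts, 3 rescalings, raw counts without scaling and a threshold of 6.42 from the markers of other cells). Leaving out a replicate gave 359 to 361 genes. Of the 100 highest genes, 99 to 100 were kept under 6 settings and when any replicate was left out. Over the 27 lists, 341 of 351 counts stayed within 1.5 times the value given, and the 10 others were of lists with 0 to 2 members over: Toll-like receptors had 2 members over at 50 counts and 1 over with raw counts or the lower threshold, and the markers of other cells had 0 to 2 per list at 50 or 200 counts. The levels of the 6 marker genes moved by -0.045 to 0.028. At 20 normalized counts the counting error was 18.5% to 23.7%, so the order of genes under the line is not resolved at this depth. No paired analysis was possible because no groups were compared.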

Other observations

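The panel also holds 196 genes that are in no list, of which 91 were over the threshold and 19 among the 100 highest. The genes named next were chosen after their values were seen. SLAM family members ran from Cd48 (12.65 ± 0.09, SD, n = 3), the ligand of 2B4, through Ly9 (9.84 ± 0.03) and Cd84 (9.10 ± 0.14) to Slamf1 at the threshold (6.67 ± 0.23) and Slamf6 under it (5.73 ± 0.29). The adenosine axis was measured from its ectoenzymes Entpd1 (CD39, 8.23 ± 0.05) and Nt5e (CD73, 7.39 ± 0.03) to its receptor Adora2a (8.33 ± 0.09) and the deaminase Ada (7.13 ± 0.11), all over the line in every sample.

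Against the 47.9% of the panel over the line, the 5 autophagy genes measured were over, from Atg16l1 (9.17) to Atg10 (6.97), and so were the 3 SMAD genes that carry TGF-beta signals, Smad4 (9.91), Smad2 (8.40) and Smad3 (7.53), in cells whose Tgfb1 stood at 12.54. These groups are small, and nothing particular to them is read from their counts. Hif1a, the oxygen-sensitive transcription factor, stood at 11.88 ± 0.06. The nucleic acid sensing adaptors Tmem173 (STING, 9.22 ± 0.10) and Mavs (8.46 ± 0.01) were over, whereas the Toll-like receptors were not. Lgals3, which encodes galectin-3, stood at 12.60 ± 0.01.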
